A study of Danio rerio with 6 samples.

Results

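Zebrafish embryos kept in a high concentration of pentachlorophenol (PCP) were compared with embryos of the same age kept in a low one. The sample labels fixed the comparison. It used 2 of the 6 libraries of the series, 10H (200 μg/l PCP) and 10L (5 μg/l PCP), both from whole wild-type Tuebingen embryos at 10 hpf (hours post fertilization). The solvent control of that age, 10C (0 μg/l PCP), served as a reference level and entered no call. All 3 groups, the control included, had received the same small share of DMSO as vehicle, and exposure had begun at about 1 hpf. Embryos were pooled, and 1 library stood for each group. There were thus no replicates, every difference given here is one between 2 libraries and not between 2 conditions, and the variation between pools is not known.

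PCP is a chlorinated phenol that was used as a wood preservative and biocide. It carries protons across the inner mitochondrial membrane and thereby uncouples respiration from ATP synthesis. Cells short of respiratory ATP can draw on glycolysis, and many glycolytic genes are targets of the hypoxia-inducible factors (HIF), which prolyl hydroxylases and the VHL ubiquitin ligase normally keep low. At about 10 hpf a zebrafish embryo reaches the bud stage, when gastrulation ends. The germ layers are then in place, the neural plate is being patterned from forebrain to spinal cord, the paraxial mesoderm is about to form somites, and most maternal RNA has given way to the embryo's own.

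The deposited values were normalized counts per gene, and the whole reads behind them could be recovered. They came to 50320856 reads in 10C, 54483684 in 10L and 51032834 in 10H. FC is the normalized count of 10H over that of 10L, and the 2 values that follow it in parentheses bound its 95% interval (Clopper-Pearson, from the reads), an interval for counting error alone. A gene was called higher or lower in 10H when it differed more than 2-fold and this interval excluded 1. A gene with 0 reads in 1 library is given a fold against a floor of 3 counts in that library. This fold leaves out counting error in the other library, so the interval reaches closer to 1.

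Of 21217 genes, 1631 (7.69%) were higher and 1850 (8.72%) lower in 10H, which together is 16.4%. Where the higher library had 50 reads or more, 1010 genes were higher and 1202 lower. The larger differences lay mostly below 1: more than 4-fold separated the libraries for 172 of these higher and 335 of the lower genes, and more than 10-fold for 24 and 85. The split depended on the scaling. With reads scaled to library totals the counts were 1202 higher and 2322 lower, so that higher genes made up 34.1% of the calls instead of 46.9%, since this scaling moved every log2 FC by -0.15. A gene with an FC between 2 and 2.23 was no longer called higher there. Under an assumed coefficient of variation of 0.4 between pools, edgeR's exact test called 438 genes higher and 706 lower.

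Genes were then grouped into 46 lists by pathway, family, tissue or stage. A member counted as measured when it had at least 10 reads on average over 10L and 10H. Among all 15702 measured genes, 8.77% were higher and 10.6% lower, and the median log2 FC was 0.06 with 1 added to the normalized counts. The shares of the lists ranged widely around this background. Germ line and maternal genes had the highest share above it on the higher side and yolk syncytial layer genes on the lower side, while no cytosolic ribosomal protein gene was called. Of all measured genes, 1011 were higher and 2077 lower under library totals, and 356 and 590 at the assumed coefficient of 0.4. Counts of list members under these settings are to be read beside these. Lists share members, and they were drawn up with earlier results of these data known, so their shares are a description.

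**Figure D1:**
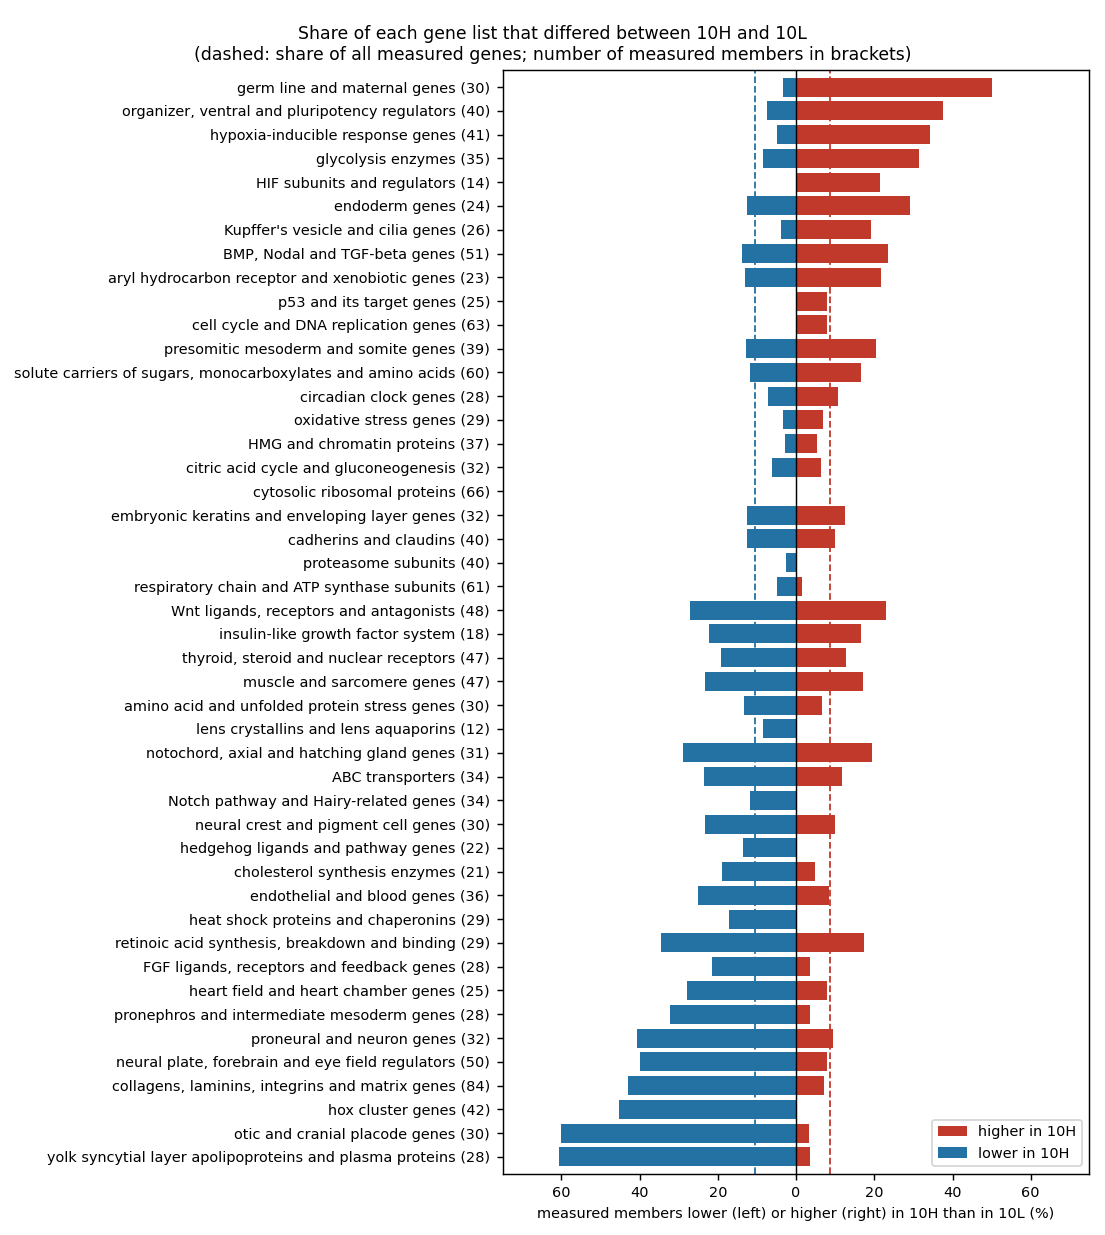
Percentage of the measured members of each gene list called higher (red, right) or lower (blue, left) in 10H than in 10L, with the number of measured members in brackets and dashed lines at the shares of all measured genes (8.77% and 10.6%). Germ line, organizer, hypoxia and glycolysis lists reach farthest to the right, and yolk syncytial layer, placode, hox and matrix lists farthest to the left.

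The labelled age was checked with stage markers. Of 14 bud-stage markers found, 13 had at least 10 reads in each of the 3 libraries of 10 hpf, from ntla (notochord) and msgn1 (presomitic mesoderm) to rx3 (eye field), sox3 (neural plate) and krt4 (enveloping layer). The exception was gata1a, an early red blood cell regulator with 2 reads in 10C, 11 in 10L and 0 in 10H. Markers of 6 later tissues were below their level in the control of 24 hpf, but 3 of them had at least 10 reads in each library of 10 hpf. The fast muscle gene mylz2 had 101, 97 and 113 reads in 10C, 10L and 10H, the globin hbae3 309, 294 and 135, and the neuronal elavl3 226, 520 and 172. The heart myosin light chain myl7 had 0, 3 and 2 reads in 10C, 10L and 10H against a normalized count of 2578 in 24C, and the pigment cell enzyme tyrp1b had 0, 2 and 4 reads against 7496. In whole embryos a lower count may stand for fewer cells of a type or for less RNA per cell, and the libraries cannot tell these apart.

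Glycolysis held the 2 highest FCs among genes that had reads in both libraries and 50 or more in the higher one. Of 35 measured enzymes, 11 (31.4%) were higher in 10H and 3 (8.57%) lower, against 8.77% and 10.6% of all measured genes. The median log2 FC was 0.75. The normalized count of gapdhs, a glyceraldehyde-3-phosphate dehydrogenase, was 90.2 in 10C, 116 in 10L and 6879 in 10H (FC 59.4, 49.9 to 71.1). Enolase eno1 went with it, at 42.0, 56.6 and 2694 (FC 47.6, 37.1 to 62.0). For both, control and low dose lay close together and only the high dose stood apart.

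The same order held for pfkfb3, which makes the allosteric activator of phosphofructokinase, with 197 in 10C, 212 in 10L and 3329 in 10H (FC 15.7, 13.7 to 18). Lactate dehydrogenase ldha, which regenerates NAD from pyruvate, had 441, 382 and 4207 (FC 11, 9.97 to 12.2). Aldolase aldocb was at 75.5, 103 and 949 (FC 9.17, 7.56 to 11.2). Glucose phosphate isomerase gpia differed less, with an FC of 3.62 (3.37 to 3.90). Pyruvate kinase pkm2a was at 227, 225 and 484 (FC 2.15, 1.84 to 2.52), and scaled to library totals its FC was 1.93.

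Family members of these enzymes did not move alike. The second GAPDH gene, gapdh, had 12820 in 10L and 10518 in 10H (FC 0.82, 0.80 to 0.842), and enolase eno3 4242 and 4204. Hexokinases hk1 and hk2, at the entry of the pathway, had FCs of 0.664 and 0.734 and were not called. The members called lower were aldolase aldoab (FC 0.153, 0.0634 to 0.321), pyruvate kinase pklr (FC 0.225, 0.177 to 0.283) and glucokinase gck, which had few reads. With an assumed coefficient of variation of 0.4, 7 enzymes were higher and 2 lower.

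**Figure D2:**
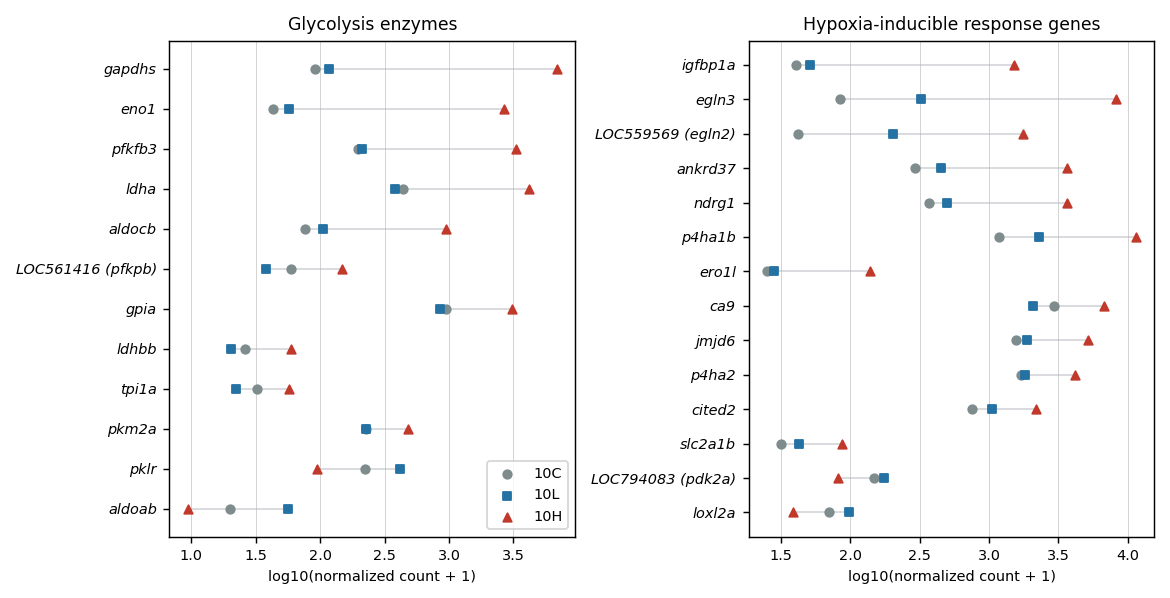
Levels of the called glycolysis enzymes (left) and hypoxia-inducible response genes (right) that reached 50 reads in the higher library, as log10 of the normalized count plus 1, in 10C (grey circles), 10L (blue squares) and 10H (red triangles), 1 library each. In the upper rows 10C and 10L lie together and 10H lies far to the right, as for gapdhs (90.2, 116 and 6879), while aldoab and pklr lie lower in 10H.

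Among 41 measured genes known to be induced in hypoxia, 14 (34.1%) were higher in 10H and 2 (4.88%) lower, with a median log2 FC of 0.65. The prolyl hydroxylase egln3, which marks HIF for destruction and is itself a HIF target, was at 83.9 in 10C, 325 in 10L and 8152 in 10H (FC 25.1, 22.6 to 28.0). Here the low dose also exceeded the control. A second prolyl hydroxylase, LOC559569 (egln2 in RefSeq), showed the same graded order at 40.9, 203 and 1749 (FC 8.60, 7.49 to 9.91). Igfbp1a, which binds insulin-like growth factors and restrains growth, was at 39.9, 50.4 and 1505 (FC 29.9, 22.9 to 39.6).

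Other hypoxia-inducible genes mostly had smaller FCs. Ankrd37, an ankyrin repeat gene, was at 448 in 10L and 3655 in 10H (FC 8.17, 7.44 to 8.98), and ndrg1, a stress-responsive gene, at 493 and 3658 (FC 7.42). The collagen prolyl hydroxylase p4ha1b had an FC of 5.00, and carbonic anhydrase ca9, which acts on extracellular pH, one of 3.26. The glucose transporter gene LOC100330897 (slc2a3b) was an exception, with 1 read in 10C, 1 in 10L and 42 in 10H. Its FC was 49.9, but with so few reads the interval was wide (8.48 to 2018). Vegfaa, the vascular growth factor, was not called, at 16.8 in 10L and 13.7 in 10H, and neither was the mitophagy gene bnip3, at 10.6 and 10.5. Few reads stood behind both, so a difference in either could have been missed. With the assumed coefficient of 0.4, 9 members were higher and none of the 41 was lower.

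A separate list held HIF subunits and other regulators. Of 14 measured, 3 (21.4%, against 8.77% of all measured genes) were higher in 10H and none was called lower. They were vhl, the recognition subunit of the ligase (FC 2.73, 2.42 to 3.09), hif1an, the asparaginyl hydroxylase that restrains HIF (FC 2.39, 2.28 to 2.51), and epas1b, a HIF-2 alpha subunit (FC 2.78, 2.08 to 3.75). None of the 3 was called under the assumed coefficient of 0.4. The subunit gene hif1ab was at 7394 in 10C, 7360 in 10L and 8128 in 10H, and the partner gene arnt at 523, 667 and 635.

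Few mitochondrial genes passed 2-fold. Of 61 measured respiratory chain and ATP synthase subunits, 1 (1.64%) was higher and 3 (4.92%) were lower, under the 8.77% and 10.6% of all measured genes. Yet 53 of the 61 had a lower value in 10H and the median log2 FC was -0.39. The clearest were the ATP synthase subunits atp5l (FC 0.458, 0.432 to 0.486) and atp5f1 (FC 0.484, 0.465 to 0.503). For citric acid cycle and gluconeogenesis, 2 of 32 (6.25%) were higher and 2 (6.25%) lower, with a median of -0.30. The gluconeogenic enzyme pck1, at 12.6 in 10C, 14.2 in 10L and 70.4 in 10H, stood opposite pyruvate carboxylase pc, at 2257, 3148 and 1279. Both medians stayed below that of all measured genes under library totals, at -0.54 and -0.46 against -0.09.

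Transporters of fuels were called in both directions. Of 60 measured solute carriers of sugars, monocarboxylates and amino acids, 10 (16.7%) were higher and 7 (11.7%) lower in 10H. All measured genes had 8.77% and 10.6%, so the lower share was near theirs. Under library totals 8 were higher and 9 lower, and at the assumed coefficient of 0.4 the numbers were 5 and 7. Monocarboxylate transporter family members slc16a9a and slc16a9b were both higher. Slc16a9a had 15 reads in 10C, 10 in 10L and 302 in 10H (FC 35.9, 19.2 to 75.6), and slc16a9b had an FC of 4.62 (4.31 to 4.95). The sugar transporter slc2a12 (FC 5.10, 4.66 to 5.59) and the fatty acid transporter slc27a4 (FC 4.89, 4.44 to 5.39) were higher as well. On the lower side stood slc2a2, the low-affinity glucose transporter of liver and pancreas, at 765 in 10C, 1361 in 10L and 217 in 10H (FC 0.159, 0.137 to 0.184), and the glutamate transporter slc1a3a (FC 0.23, 0.198 to 0.267).

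The insulin-like growth factor system was split likewise, with 3 of 18 measured members (16.7%) higher and 4 (22.2%) lower, against 8.77% and 10.6% of all measured genes. Beside igfbp1a, the ligand igf3 (FC 4.35, 3.02 to 6.40) and the receptor substrate irs2 (FC 2.65, 2.03 to 3.47) were higher in 10H. The binding protein igfbp2a had 71 reads in 10C, 149 in 10L and 0 in 10H, which against the floor is 41.8-fold lower than in 10L. Binding protein igfbp5a was at 204, 464 and 52.6 (FC 0.113, 0.0829 to 0.151), and the ligand igf2b at 150, 203 and 42.0 (FC 0.208, 0.144 to 0.291).

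Genes of the germ line and of the maternal store had the largest share on the higher side. Of 30 measured, 15 (50%) were higher in 10H and 1 (3.33%) was lower, and the median log2 FC was 0.97. The oocyte-type histone gene LOC100332229 was at 56.7 in 10C, 22.1 in 10L and 136 in 10H (FC 6.13, 3.97 to 9.83). Buc, which organizes the Balbiani body of the oocyte, was at 73.4, 25.7 and 109 (FC 4.26, 2.80 to 6.67). The oocyte kinase wee2 was at 54.6, 31.0 and 112 (FC 3.63, 2.46 to 5.48), and the germ cell RNA helicase vasa at 800, 519 and 1800 (FC 3.47, 3.15 to 3.81). In each of these the control lay between the doses and the low dose was the lowest of the 3 libraries.

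The list's median log2 ratio to 10C was 0.57 for 10H and -0.44 for 10L. Germ cell genes dnd (FC 2.92), dazl (FC 2.22) and tdrd6 (FC 2.17) pointed the same way, and so did npm2 (FC 2.54), which decondenses chromatin in the egg. The single member called lower was piwil2, a Piwi protein of the germ line, at 506, 799 and 315 (FC 0.395, 0.345 to 0.45). Nanos3, which protects primordial germ cells, was not called, at 371, 172 and 279 (FC 1.62, 1.34 to 1.96). Under library totals 11 members were higher, and under the assumed coefficient of 0.4 the number was 7.

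Organizer, ventral and pluripotency regulators, which act from blastula to gastrula, were higher in 15 of 40 measured members (37.5%) and lower in 3 (7.5%). All measured genes had 8.77% and 10.6%. The median log2 FC of the list was 0.64. The largest difference was that of pou5f1 (pou5f3), the zebrafish Oct4 homolog that activates the zygotic genome. It was at 3572 in 10C, 2047 in 10L and 24113 in 10H (FC 11.8, 11.3 to 12.3), so 10H exceeded both other libraries severalfold. The Kruppel-like factor klf2b was at 2263, 1287 and 6316 (FC 4.91, 4.63 to 5.20), and foxi1, a ventral ectoderm factor also needed for the ear, at 2640, 1427 and 5292 (FC 3.71, 3.51 to 3.92).

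Dorsal and ventral regulators stood on the same side. Gsc, the homeobox gene of the organizer and prechordal plate, was at 1133 in 10C, 705 in 10L and 2023 in 10H (FC 2.87, 2.64 to 3.12). Its neighbour chd, the Bmp antagonist chordin, had an FC of 2.27 (2.23 to 2.32). Ventrally expressed eve1 (FC 2.88, 2.7 to 3.08) and ved (FC 2.78) were higher too. On the lower side were foxi3b, which specifies epidermal ionocytes (FC 0.0961, 0.0568 to 0.153), and the Myc genes myca (FC 0.167, 0.118 to 0.23) and mycb (FC 0.46, 0.423 to 0.50). With library totals the counts were 10 higher and 4 lower, and with the assumed coefficient of 0.4 they were 3 and 2.

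Endoderm and Nodal genes included another of the highest FCs. Sox32, the Sox factor without which zebrafish endoderm does not form, was at 783 in 10C, 342 in 10L and 5337 in 10H (FC 15.6, 14.1 to 17.3). Its target sox17 was at 750, 475 and 1446 (FC 3.04, 2.75 to 3.37), and bon, the Mix-type factor upstream of both, at 148, 102 and 295 (FC 2.90, 2.33 to 3.64). The order low dose, control, high dose was the same for all 3. Of 24 measured endoderm genes 7 (29.2%) were higher and 3 (12.5%) lower, the lower share near the 10.6% of all measured genes. Hnf4a (FC 2.54, 2.38 to 2.7) and onecut1 (FC 3.63, 3.27 to 4.03), later used in the liver, were among the higher, and mnx1, neurod and arx, which act in endocrine pancreas and in neurons, made up the lower. The assumed coefficient of 0.4 left 2 higher and 1 lower.

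Of 51 measured Bmp, Nodal and TGF-beta genes, 12 (23.5%) were higher and 7 (13.7%) lower, with a median log2 FC of 0.57. The shares of all measured genes were 8.77% and 10.6%, and the lower share was not far from theirs. The Nodal co-receptor oep was at 1101, 809 and 4229 (FC 5.23, 4.87 to 5.63), the Nodal antagonist lft2 at 596, 294 and 1448 (FC 4.93, 4.37 to 5.58), and the Nodal ligand ndr2 at 103, 73.4 and 325 (FC 4.42). Foxh1, which carries the Nodal signal to DNA with Smads, had an FC of 2.88. Admp, a dorsal Bmp-type ligand, had one of 4.47 (4.04 to 4.96). The main ventral ligands bmp2b, bmp4 and bmp7a had FCs of 1.82, 1.81 and 1.59 and were not called. At the assumed coefficient of 0.4, 6 members of the list were higher and 4 lower.

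Lower in 10H were gdf6b, a ligand with 36 reads in 10C, 71 in 10L and 2 in 10H, the antagonist nog2 (FC 0.097, 0.049 to 0.175), bmp6 (FC 0.206, 0.135 to 0.305) and tgfb3 (FC 0.208, 0.15 to 0.283). Skilb, a SnoN-type repressor of Smad signalling outside the list, was among the 15 highest FCs of the comparison, at 53.5, 61 and 624 (FC 10.2, 7.96 to 13.3). The same ranking held 3 further genes: add3b, an adducin that links spectrin to actin (FC 17.8, 15.9 to 20), cldnc, a claudin of tight junctions (FC 10.7, 8.25 to 14.1), and enpp6, a choline phosphodiesterase with 5 and 60 reads.

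**Figure D3:**
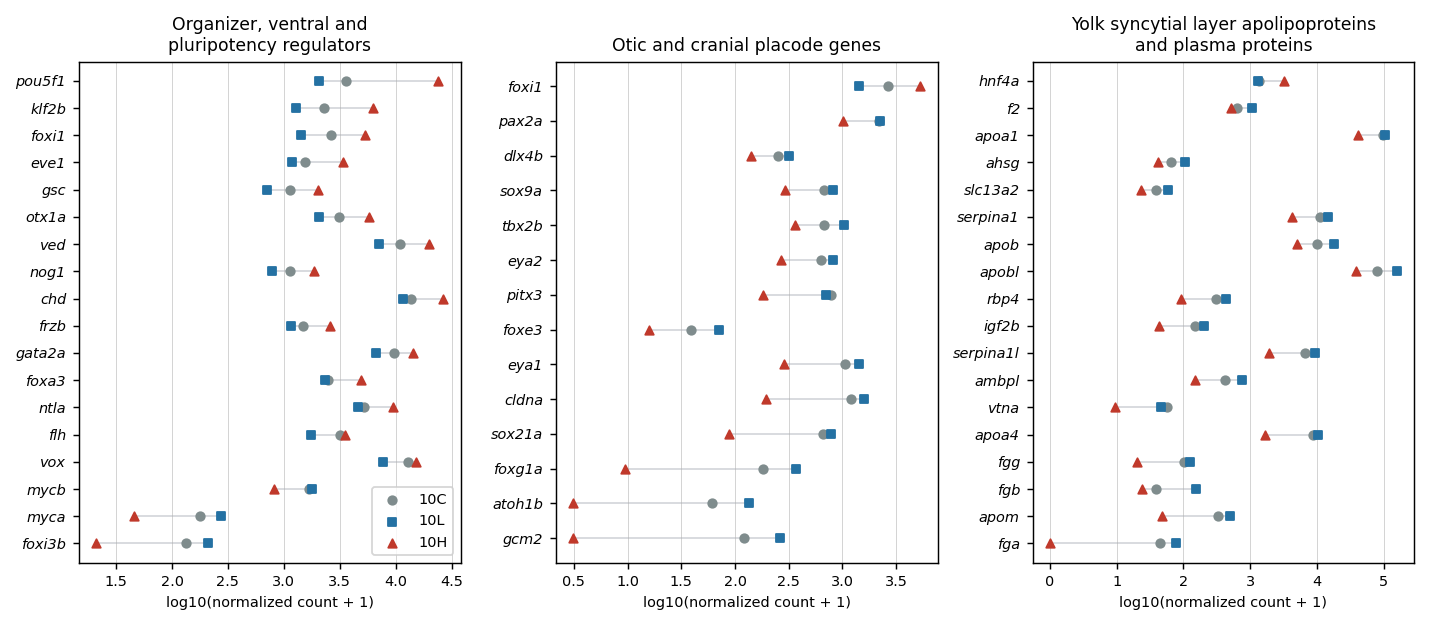
Levels of most called members of 3 lists that reached 50 reads in the higher library, as log10 of the normalized count plus 1, in 10C (grey circles), 10L (blue squares) and 10H (red triangles), 1 library each. Most organizer and pluripotency regulators lie to the right in 10H, led by pou5f1, while placode genes other than foxi1 and yolk syncytial layer genes other than hnf4a lie to the left in 10H.

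The paraxial mesoderm gave a mixed picture. Of 39 measured presomitic mesoderm and somite genes, 8 (20.5%) were higher and 5 (12.8%) lower. All measured genes had 8.77% and 10.6%, so the lower share was near theirs. On the higher side, tbx16, which lets mesoderm cells leave the midline, was at 5299 in 10C, 6380 in 10L and 15860 in 10H (FC 2.49, 2.42 to 2.56), tbx6 had an FC of 2.29 and fgf24 one of 7.83 (6.22 to 9.96). On the lower side, the somite factor meox1 was at 4125, 5737 and 1710 (FC 0.298, 0.282 to 0.315), par1 (tcf15 in RefSeq) at 2196, 2397 and 1153 (FC 0.481, 0.448 to 0.516), and the tail bud ligand fgf4 had an FC of 0.307 (0.201 to 0.455). Msgn1, the master regulator of the presomitic state, was not called (FC 1.38, 1.36 to 1.41), and ntla had an FC of 2.03 that was 1.82 under library totals. At the assumed coefficient of 0.4, 1 member of the list was higher and 1 lower.

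Muscle genes were higher in 8 (17.0%) and lower in 11 (23.4%) of 47 measured members, against 8.77% and 10.6% of all measured genes. The skeletal actin acta1a was at 328 in 10C, 1084 in 10L and 32.6 in 10H (FC 0.03, 0.0203 to 0.0429), and the myosin-binding protein mybpc2b at 24.1, 248 and 15.8 (FC 0.0637, 0.0352 to 0.107). For both, the low dose lay far above the other 2 libraries. The myogenic regulator of differentiation, myog, had a normalized count of 28.3 in 10L and 1.05 in 10H. Other contractile genes stood on the higher side at low levels, such as pvalb1, the calcium buffer parvalbumin, with 18, 15 and 70 reads, and the slow myosin smyhc3 (FC 2.49, 1.94 to 3.22), which has close copies that may share reads. Under library totals 3 muscle genes were higher and 15 lower, and at the assumed coefficient of 0.4 the numbers were 1 and 8.

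The neural plate was lower in many of its regional regulators. Of 50 measured, 20 (40.0%) were lower in 10H and 4 (8%) higher, with a median log2 FC of -0.54. All measured genes had 10.6% and 8.77%, so the higher share was near theirs. The eye gene mab21l2 had 327 reads in 10C, 914 in 10L and 9 in 10H (FC 0.0117, 0.00533 to 0.0223). Telencephalon factor foxg1a had 172, 415 and 8 reads (FC 0.0229, 0.00982 to 0.0456), and midbrain-hindbrain boundary factor eng2b had 80, 327 and 4 (FC 0.0145, 0.00394 to 0.0376). The low dose was the highest of the 3 libraries for each.

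Hindbrain genes were lower as well. Egr2b, which specifies rhombomeres, was at 694 in 10C, 1215 in 10L and 75.7 in 10H (FC 0.0623, 0.0484 to 0.0789), and mafba, which acts beside it, had an FC of 0.114. Gbx2, which positions the anterior hindbrain, had one of 0.173, and pax6a, of eye and forebrain, one of 0.0649. The 4 on the higher side, a share near that of all measured genes, were hesx1 (FC 5.20, 4.37 to 6.22), gbx1 (FC 3.21, 2.95 to 3.50), otx1a (FC 2.81, 2.68 to 2.95) and fezf2 (FC 2.26, 2.1 to 2.43). All of these except gbx1 are early anterior neural factors. Sox3, expressed throughout the early neural plate, was not called (FC 1.5, 1.46 to 1.55), nor was the eye field gene rx3 (FC 0.659, 0.618 to 0.702). Under the assumed coefficient of 0.4, 12 members were lower and 2 higher.

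Genes of neuronal differentiation were called lower more often than higher. Of 32 measured proneural and neuron genes, 13 (40.6%) were lower and 3 (9.38%) higher, the higher share near the 8.77% of all measured genes. The bHLH factors neurod, with 50 reads in 10C, 172 in 10L and 6 in 10H, neurod4 (FC 0.122, 0.0907 to 0.16) and nhlh2 (FC 0.107, 0.05 to 0.204) were lower. Elavl3, an RNA-binding protein of young neurons, was at 237, 460 and 181 (FC 0.393, 0.329 to 0.468). Outside the list, bhlhe22 had 30, 112 and 0 reads, against the floor 31.4-fold lower than in 10L. Drgx, a sensory neuron homeobox gene, had 16, 54 and 0 reads, against the floor 15-fold lower. Prdm14, a PR-domain regulator of motor neurons, stood on the other side at 721, 447 and 2194 (FC 4.91, 4.45 to 5.42). With the assumed coefficient of 0.4, 9 members of the list were lower and 2 higher.

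Cranial placodes, the thickenings that give rise to ear, nose, lens and ganglia, had one of the 2 largest shares of lower genes. Of 30 measured, 18 (60.0%) were lower and 1 (3.33%) higher, with a median log2 FC of -1.51. The median log2 ratio to the control was -1.22 in 10H and 0.23 in 10L. Gcm2, a factor of the pharyngeal region, had 115 reads in 10C, 298 in 10L and 2 in 10H (FC 0.00798, 0.000961 to 0.0291), and atoh1b, the proneural gene of ear hair cells, had 57, 153 and 2 (FC 0.0155, 0.00186 to 0.0571).

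Eya genes, transcriptional cofactors of early placode formation, were lower together. The first, eya1, was at 1047 in 10C, 1437 in 10L and 282 in 10H (FC 0.196), and eya2 at 624, 823 and 265 (FC 0.322). The lens factors pitx3 (FC 0.261) and foxe3 (FC 0.211) were lower, and so was sox21a (FC 0.112, 0.0887 to 0.141). The exception on the higher side was foxi1, described above among the ventral factors. Under the assumed coefficient of 0.4, 12 placode genes were lower and 1 was higher. Of 12 measured lens crystallins and lens proteins, 1 (8.33%) was lower, near the 10.6% of all measured genes, and none was called higher. The lower one was LOC560018 (bfsp1 in RefSeq), with 19, 56 and 6 reads. Many of the list had few reads, such as the crystallin cryba2b with 14, 18 and 6, so differences could have been missed.

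Neural crest and pigment cell genes were lower in 7 (23.3%) and higher in 3 (10.0%) of 30 measured members. All measured genes had 10.6% and 8.77%, so the higher share was near theirs. The crest regulator sox10 was at 223 in 10C, 460 in 10L and 34.7 in 10H (FC 0.0754, 0.0514 to 0.107), sox9b at 1047, 1543 and 167 (FC 0.108, 0.0915 to 0.128) and snai2 at 1092, 1750 and 628 (FC 0.359). Foxd3, an early crest specifier, was not called (FC 1.2, 1.12 to 1.29). Pnp4a, a purine enzyme of iridophores, was higher at 377, 241 and 1009 (FC 4.19, 3.66 to 4.82). The assumed coefficient of 0.4 left 4 lower and 2 higher.

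Hox cluster genes, which set position along the trunk and hindbrain, were lower in 19 of 42 measured members (45.2%), with none of the 42 called higher and a median log2 FC of -0.73. Hoxa10b was at 166 in 10C, 229 in 10L and 20 in 10H (FC 0.0872, 0.0516 to 0.139), and hoxd11a at 81.8, 129 and 15.8 (FC 0.122, 0.0666 to 0.208). Hoxd12a had 21, 53 and 0 reads, against the floor 14.9-fold lower in 10H than in 10L. The clusters were unlike each other, a grouping made after the values were seen. In the A clusters 10 of 11 and in the D cluster 6 of 6 measured genes were lower, with median FCs of 0.254 and 0.22. In the B clusters this held for 2 of 15 and in the C clusters for 1 of 10, with median FCs of 0.727 and 0.702. Whether the clusters differed was not tested. Under the assumed coefficient of 0.4, 12 hox genes were lower.

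Retinoic acid patterns the hindbrain and trunk, and members of its pathway differed in both directions. Of 29 measured members, 5 (17.2%) were higher and 10 (34.5%) lower. Among synthesis enzymes, rdh10a, which makes retinal from retinol, was at 2898 in 10C, 2035 in 10L and 5263 in 10H (FC 2.59, 2.46 to 2.72), and aldh1a2, which makes retinoic acid, at 5497, 4077 and 8329 (FC 2.04). Rdh1, another retinol dehydrogenase, had 3, 67 and 8 reads.

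The 3 Cyp26 enzymes, which degrade retinoic acid, did not move together. Cyp26a1 was at 8437, 4763 and 18453 (FC 3.87, 3.76 to 3.99). Cyp26b1 was at 90.2, 170 and 28.4 (FC 0.167, 0.107 to 0.251), and cyp26c1 at 2374, 3052 and 693 (FC 0.227, 0.209 to 0.247). Thus 10H had the highest cyp26a1 and the lowest cyp26b1 and cyp26c1 of the 3 libraries.

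The intracellular binding proteins for retinoic acid also diverged, with crabp2b at 12978, 7260 and 30351 (FC 4.18, 4.08 to 4.29) and crabp2a at 4031, 5183 and 1306 (FC 0.252, 0.237 to 0.268). Crabp1b had 21, 7 and 7 reads and was not called. Retinol carriers were lower: rbp4, the plasma carrier, was at 310, 432 and 90.4 (FC 0.209, 0.165 to 0.264), and its receptor stra6 had an FC of 0.291. Rbp2b, a cellular carrier, had 28, 60 and 0 reads, against the floor 16.8-fold lower in 10H than in 10L. Under the assumed coefficient of 0.4, 2 members were higher and 9 lower.

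The yolk syncytial layer, which feeds the embryo from the yolk and expresses genes of the later liver, had the largest share of lower genes. Of 28 measured apolipoproteins and plasma proteins, 17 (60.7%) were lower and 1 was higher, with a median log2 FC of -1.37. Apolipoprotein B gene apobl, the scaffold of lipoprotein particles, was at 80057 in 10C, 157783 in 10L and 38837 in 10H (FC 0.246). The apolipoprotein gene apoa1 was at 96160, 104043 and 41514 (FC 0.399), and apoa4 at 8674, 10424 and 1667 (FC 0.16). In all 3 the low dose was highest and the high dose lowest, at levels where counting error is small.

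The fibrinogen chains, which form blood clots, were lower together. Fga had 41 reads in 10C, 87 in 10L and 0 in 10H, which against the floor is 24.4-fold lower than in 10L. Fgb (FC 0.15, 0.0918 to 0.235) and fgg (FC 0.154, 0.0886 to 0.252) had close FCs. The lipocalin apom was at 328, 494 and 46.3 (FC 0.0937, 0.0673 to 0.127). The one member on the other side was hnf4a, itself a regulator of such genes. Under the assumed coefficient of 0.4, 13 members were lower.

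ABC transporters, which pump lipids, bile salts and foreign compounds out of cells, were lower in 8 (23.5%) and higher in 4 (11.8%) of 34 measured members. All measured genes had 10.6% and 8.77%. The bile salt pump gene abcb11a was at 3298 in 10C, 5426 in 10L and 1390 in 10H (FC 0.256, 0.241 to 0.272), the conjugate exporter abcc2 at 5550, 7548 and 3439 (FC 0.456, 0.438 to 0.474), and the sterol exporter abcg8 had 14, 53 and 3 reads. Abcg2a, a multidrug pump, was higher at 86.0, 65.5 and 228 (FC 3.48, 2.66 to 4.6), as was abcb6 of porphyrin transport (FC 2.65, 2.48 to 2.83). With the assumed coefficient of 0.4 the counts were 3 lower and 1 higher.

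Extracellular matrix genes formed the longest list of lower genes, with 36 of 84 measured members (42.9%) lower, 6 (7.14%) higher and a median log2 FC of -0.74. The median log2 ratio to 10C was -0.22 in 10H and 0.39 in 10L. Thbs4b, a thrombospondin of tendon attachment, had 77 reads in 10C, 296 in 10L and 9 in 10H (FC 0.0361, 0.0164 to 0.0695). The laminin receptor subunit itga3b was at 1017, 2212 and 240 (FC 0.108, 0.0942 to 0.124), and the notochord collagen col2a1a at 438, 1200 and 140 (FC 0.116, 0.0967 to 0.139).

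Fibronectin fn1b, abundant around somites, was at 11414, 22882 and 10597 (FC 0.463), so 10H lay near the control and 10L above both. The collagen chaperone hsp47 was at 20292, 35637 and 12375 (FC 0.347, 0.34 to 0.354). Higher in 10H were col10a1 (FC 4.49, 3.23 to 6.36), the laminin chain lamc3 (FC 3.11, 2.23 to 4.40) and the fibrillin gene LOC100330961 (FC 3.22, 1.99 to 5.38). Under the assumed coefficient of 0.4, 13 matrix genes were lower and 1 was higher.

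Notochord, axial and hatching gland genes were lower in 9 (29.0%) and higher in 6 (19.4%) of 31 measured members, against 10.6% and 8.77% of all measured genes. The hatching enzymes were lower: he1a was at 3807 in 10C, 6151 in 10L and 590 in 10H (FC 0.0959, 0.0878 to 0.104) and its close copy he1b at 2037, 2709 and 301 (FC 0.111, 0.0979 to 0.125), and reads may be shared between them. The cathepsin gene of the hatching gland, ctsl1b, was at 7695, 7972 and 2837 (FC 0.356, 0.341 to 0.372). Early axial genes ntla, flh, foxa3, gsc and chd were on the higher side, but under library totals 2 members of the list were higher, and at the assumed coefficient of 0.4 none of the 31 was higher and 7 were lower.

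Mesodermal organ fields were mostly lower where they differed. Of 28 measured pronephros and intermediate mesoderm genes, 9 (32.1%) were lower and 1 (3.57%) was higher, against 10.6% and 8.77% of all measured genes. Among the 9, 1 carries a symbol that the deposited human match does not share. Hnf1bb, a kidney and hindbrain factor, had 34 reads in 10C, 186 in 10L and 2 in 10H (FC 0.0128, 0.00154 to 0.0468), and the podocyte factor wt1a 110, 240 and 5 (FC 0.0248, 0.00797 to 0.0586). Of 25 measured heart genes 7 (28.0%) were lower and 2 (8%) higher, the higher share near that of all measured genes. Hand2, needed for heart and fin mesoderm, was at 1533, 1623 and 473 (FC 0.291, 0.262 to 0.323) and isl1 at 538, 707 and 163 (FC 0.231, 0.193 to 0.274).

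Of 36 measured endothelial and blood genes 9 (25%) were lower and 3 (8.33%) higher, the higher share near the 8.77% of all measured genes. Etv2, the switch from mesoderm to blood vessel, was at 321 in 10C, 739 in 10L and 36.8 in 10H (FC 0.0498, 0.0345 to 0.0698). The factors tal1, at 103, 275 and 23.1 (FC 0.0841, 0.0519 to 0.13), and fli1a, at 231, 552 and 47.3 (FC 0.0857, 0.0619 to 0.116), which act beside it, showed the same order. Slc4a1a, the red cell anion exchanger, had 181, 99 and 35 reads, with the control highest. Aplnrb, the apelin receptor of early mesoderm, was higher (FC 2.27, 2.15 to 2.39). At the assumed coefficient of 0.4, 5 of the 36 were lower and none was higher, against 4 lower and 1 higher each for pronephros and heart.

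The signalling families differed member by member. Of 48 measured Wnt genes 11 (22.9%) were higher and 13 (27.1%) lower. Library totals gave 7 and 13, and the assumed coefficient of 0.4 gave 1 and 6. Wnt8a, the posteriorizing ligand of the gastrula margin, was at 1027 in 10C, 706 in 10L and 1865 in 10H (FC 2.64, 2.43 to 2.88), and its target sp5l at 9920, 6066 and 22814 (FC 3.76, 3.66 to 3.87). Wnt11r, expressed later in neural tissue and muscle precursors, was at 869, 1408 and 170 (FC 0.121, 0.102 to 0.142), whereas the gastrulation ligand wnt11 had an FC of 2.09. The secreted antagonists sfrp1a (FC 2.88, 2.77 to 2.98) and sfrp2, with 70, 151 and 2 reads, lay on opposite sides.

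FGF genes were lower in 6 (21.4%) and higher in 1 (3.57%) of 28 measured, against 10.6% and 8.77% of all measured genes. At the assumed coefficient of 0.4, 1 was lower and 1 higher. The higher one was fgf24, and fgf8a, the main FGF of the margin, was not called, at 3306 in 10L and 3095 in 10H. Of 22 measured hedgehog genes 3 (13.6%) were lower, not far from the 10.6% of all measured genes, and none was called higher. Ihhb, an Indian hedgehog ligand, had 15, 76 and 2 reads, and gli3, a transcriptional effector, an FC of 0.22 (0.172 to 0.28). The notochord and floor plate ligands shha (FC 0.729) and shhb (FC 0.865) were not called. Of 34 Notch and Hairy-related genes 4 (11.8%) were lower, near the 10.6% of all measured genes, and none was called higher. Among the 4 were the receptor notch1b (FC 0.318, 0.287 to 0.351) and the ligand dlb (FC 0.291, 0.257 to 0.328).

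Responses to foreign compounds and stress were covered by several lists. Of 23 measured aryl hydrocarbon receptor and xenobiotic genes 5 (21.7%) were higher and 3 (13%) lower, against 8.77% and 10.6% of all measured genes. At the assumed coefficient of 0.4 these were 3 and 0. Cyp1a, the standard reporter of this receptor, was at 48.3 in 10C, 97.3 in 10L and 363 in 10H (FC 3.73, 3 to 4.66), and cyp1b1 had 10, 14 and 62 reads (FC 5.26, 2.91 to 10.2). For cyp1a the order of the levels followed the doses, while for cyp1b1 only 10H stood apart. The receptor ahr2 (FC 2.12) and its target tiparp (FC 2.21, 2.13 to 2.29) were called, but scaled to library totals neither was. Aox1, an aldehyde oxidase outside the list, had 15 reads in 10C, 0 in 10L and 62 in 10H. Against the floor this is 24.6-fold higher than in 10L, with an interval that began at 19.4.

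Of 29 oxidative stress genes 2 (6.90%) were higher and 1 (3.45%) lower, under the 8.77% and 10.6% of all measured genes. They were catalase cat (FC 3.06, 2.46 to 3.84), mitochondrial superoxide dismutase sod2 (FC 2.25, 1.91 to 2.66) and, on the lower side, the lipid peroxidase gpx4a (FC 0.444, 0.43 to 0.458). Of 25 p53-related genes 2 were higher, a share near the 8.77% of all measured genes, and none was called lower. The 2 were sesn3 (FC 3.03, 2.96 to 3.10) and gadd45aa (FC 2.5, 1.96 to 3.2). Cdkn1a, the p53 target that stops the cell cycle, was not called (FC 1.33, 1.14 to 1.56) and neither was mdm2 (FC 0.725). Of 29 heat shock proteins and chaperonins 5 (17.2%) were lower and none was called higher, and at the assumed coefficient of 0.4, 1 was lower. Hsp70l, the stress-inducible Hsp70, had 79 reads in 10C, 58 in 10L and 20 in 10H.

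Among 30 genes of amino acid and unfolded protein stress, 4 (13.3%) were lower and 2 (6.67%) higher, near the 10.6% and 8.77% of all measured genes. Asns, asparagine synthetase, was at 2527, 3054 and 1390 (FC 0.455, 0.427 to 0.485), atf3 at 154, 202 and 88.3 (FC 0.438, 0.337 to 0.565) and the chaperone hspa5 had an FC of 0.495 (0.478 to 0.513). Proline synthesis enzyme aldh18a1 was higher (FC 2.90, 2.52 to 3.35). Housekeeping machines hardly differed. None of 66 cytosolic ribosomal protein genes and 1 of 40 proteasome genes was called, although 61 and 38 of them had lower values in 10H, with medians of -0.20 and -0.32. Of 63 cell cycle genes 5 (7.94%, against 8.77% of all measured genes) were higher and none was called lower. Among the higher was ccna1, a germ line cyclin (FC 4.38, 3.30 to 5.88).

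The control showed where the 2 doses stood. Among the 1010 higher genes with at least 50 reads, 10C lay between 10L and 10H for 771 (76.3%) and below both for 226 (22.4%), and on the log2 scale it was nearer to 10L for 803 (79.5%). The medians of these genes were 1.05 for log2 of 10H over 10C and -0.38 for 10L over 10C. Among the 1202 lower genes, 10C lay between the doses for 1047 (87.1%) and above both for 125 (10.4%), and it was nearer to 10L for 929 (77.3%). Their medians were -1.09 and 0.50. The genes had been chosen for their difference between 10H and 10L, so these positions describe them and test nothing. Below both doses were gapdhs, eno1, egln3, igfbp1a, pfkfb3 and cyp1a, whereas most named genes of the germ line, organizer, neural plate, placodes and yolk syncytial layer had the control between.

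The controls of both ages share no library with the comparison of doses. Of the 1202 lower genes, 987 (82.1%) had a higher normalized count in 24C than in 10C, with a median log2 ratio of 1.40. Of the 1010 higher genes, 331 (32.8%) did, with a median of -0.85. Among all 12812 genes with at least 50 reads in 10L or 10H the share was 41.0% and the median -0.28. By list, the medians of 24C over 10C were -2.38 for germ line and maternal genes, -2.15 for organizer and pluripotency regulators, -2.68 for presomitic mesoderm, 1.63 for yolk syncytial layer genes, 2.55 for matrix and 1.15 for hox genes. Other lists had the same sign in both: glycolysis had a median of 1.28 with a median log2 FC of 0.75, hypoxia-inducible genes 0.73 with 0.65, neural plate regulators -0.25 with -0.54 and retinoic acid genes -0.64 with -0.40. Placodes stood at 0.44. The pools' stage within 10 hpf was not measured by the files, and its part in these differences was not tested.

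**Figure D4:**
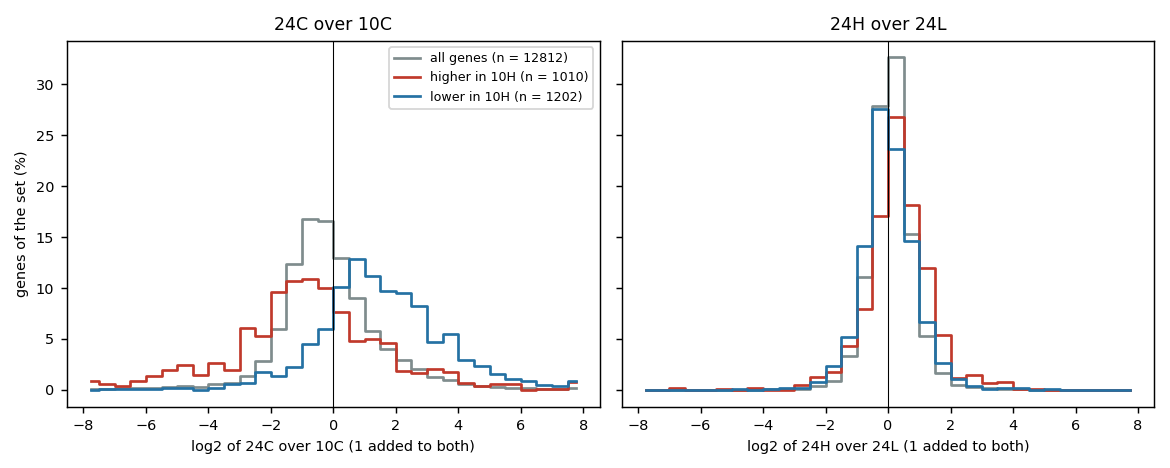
Distribution of log2 ratios, as the percentage of genes in bins of 0.5 (values beyond 8 drawn at 8), for 24C over 10C (left) and 24H over 24L (right) in all 12812 genes with at least 50 reads in 10L or 10H (grey) and in the 1010 called higher (red) and 1202 called lower (blue) in 10H. On the left the blue curve lies mostly above 0 (82.1%) and the red mostly below (32.8% above). On the right the 3 curves overlap, with the red shifted upward. There 66.6% of the red set, 56.1% of all genes and 49.5% of the blue set lie above 0.

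At 24 hpf the same 2 doses were compared in other pools. Of the 1010 genes higher in 10H, 206 (20.4%) were also higher in 24H than in 24L and 81 (8.02%) lower. Of the 1202 genes lower in 10H, 105 (8.74%) were lower and 133 (11.1%) higher at 24 hpf. In all 12812 genes the shares were 7.98% higher and 4.91% lower. Most differences of 10 hpf were thus below the threshold at 24 hpf, with 723 and 964 genes not called.

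Individual genes took different courses between the ages. Pou5f1 was at 71.7 in 24C, 96.9 in 24L and 613 in 24H, and slc16a9a at 57.8, 47.4 and 451, so both were again highest at the high dose. Igfbp1a was at 355, 981 and 4226, and gapdhs at 5064, 7209 and 16941. By contrast, ldha was at 5870, 8284 and 5864, and foxg1a at 902, 1022 and 993. The placode list, with a median log2 FC of -1.51 at 10 hpf, had one of 0.49 for 24H over 24L, the yolk syncytial layer list 0.28 and the hox list 0.25. Presomitic mesoderm had the highest median of the 46 lists at 24 hpf, 1.31, and lens the lowest, -3.48.

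**Figure D5:**
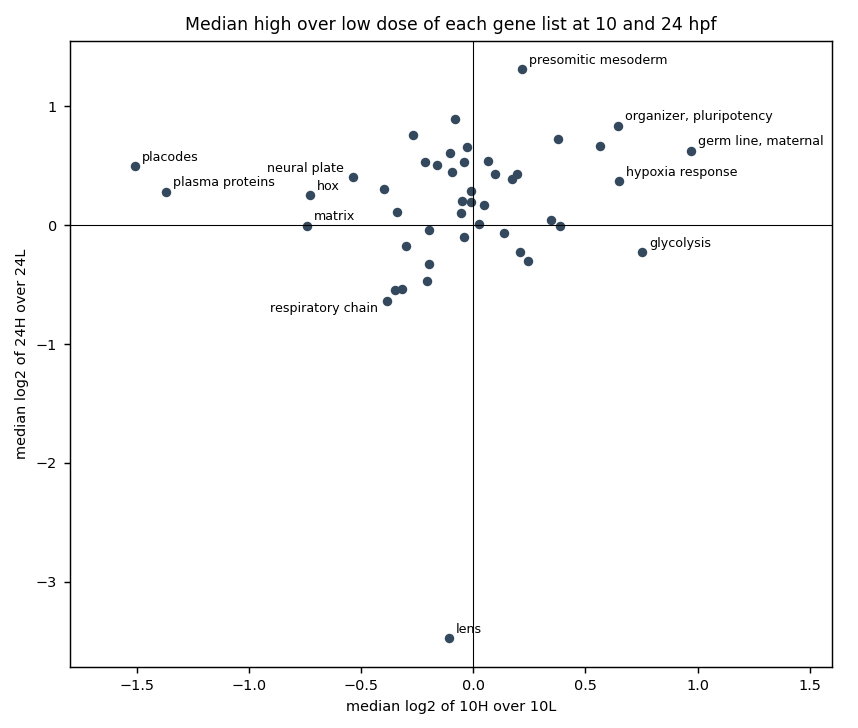
Median log2 ratio of the high over the low dose for each of the 46 gene lists at 10 hpf (horizontal) and 24 hpf (vertical), from pools of separate embryos, with 12 lists labelled. Germ line and organizer lists lie above 0 at both ages, placode, yolk syncytial layer (plasma proteins) and hox lists lie below 0 at 10 hpf only, and lens stands apart at -3.48 at 24 hpf.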

How the data were processed

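Whole embryos exposed to 0, 5 or 200 μg/l PCP and collected at 10 or 24 hpf gave 6 libraries, 1 a group. According to the sources, the authors mapped reads with Tophat to the zebrafish genome (Zv9 in the labels, Zv10 in the paper's methods), annotated genes further by similarity to human, and normalized by TMM in edgeR. The extraction reagent differs between labels and methods, and the sources used here do not name the counting program. The deposited signal of each gene is thus a normalized count. The values of a library were all multiples of 1 step (0.885 in 10L, 1.05 in 10H; tolerance 0.001), which gave back the reads. The comparison rests on the columns of 10H and 10L. The table held 21228 entries, and 11 that merged clone-named transcripts, with 13.9% to 15.5% of a library's reads, were left out.

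With 1 library a group no test of conditions was possible. Genes were called at more than 2-fold, the threshold of the study, where the 95% Clopper-Pearson interval of the fold also excluded 1. In simulated libraries with counting error and no other variation, changed genes were drawn from those with a mean normalized count of at least 30. The rule recovered 100% of such genes changed 3-fold or 12-fold, and it called 129 unchanged genes among the 21217 simulated. Recovery of changed genes with lower counts was not simulated. Depth is that of 1 library each. Intervals cover counting error only, and the floor of 3 counts covers it only in the library without reads.

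The lists and the genes named were chosen with earlier results of these data known. Of 1922 distinct list entries, 1522 matched the table by name, 170 through RefSeq names and 230 did not match. Genes named were the 15 highest and 15 lowest FCs (50 reads or more in the higher library, symbols other than LOC numbers), up to 4 called members of each list per direction, stage markers, genes the study names at this age, and all members of lists with 15 or fewer measured. Some further list members were named after their values were seen, and results for some genes covered by this rule are not reported here. Alternatives were scaling by library totals or median-of-ratios, minimums of 10 or 50 reads, a 4-fold threshold, 1 added to each value, no interval, an interval wholly beyond 2-fold, adjusted p, and edgeR's exact test on the recovered reads with an assumed coefficient of variation of 0.2 or 0.4. Python 3.11.15 (numpy 2.4.6, pandas 2.3.3, scipy 1.17.1, matplotlib 3.10.9), R 4.3.3 and edgeR 4.0.16 were used.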

Additional observations from a re-analysis of the deposited data

Results flagged for a closer look

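In 16 named genes the high and the low dose differed by more than 2-fold in opposite directions at 10 and 24 hpf, with both counting intervals wholly beyond 2-fold. The difference between the ages was not tested, since there was 1 library per dose and age. Values are normalized counts, and FC here is 24H over 24L.

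Lower in 10H than in 10L but higher in 24H than in 24L were 13 of them. The paraxial mesoderm factor meox1 had an FC of 4.53 at 24 hpf, from 1457 in 24L to 6606 in 24H. Abcb11a, the bile salt pump gene, had one of 4.38 and the hindbrain factor egr2b one of 4.16, from 313 to 1304. Asparagine synthetase asns (FC 3.58) and the collagen chaperone hsp47 (FC 3.55) followed. The posterior hox gene hoxd12a, with 0 reads in 10H, had an FC of 3.21 at 24 hpf, and gdf6b, a Bmp-type ligand, one of 3.04. The matrix gene thbs4b (FC 2.62), the claudin cldna (FC 2.54), the Myc gene mycb (FC 2.5), wnt11r (FC 2.38), the FGF receptor-like gene fgfrl1a (FC 2.18) and the fibrinogen chain fga (FC 2.17) were closer to the threshold. Fga was at 5821 in 24C, 2682 in 24L and 5832 in 24H, so 24H lay at the control's level and 24L below it.

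The other 3 were higher in 10H and lower in 24H. The muscle calcium buffer pvalb1 had an FC of 0.01003 at 24 hpf, from 10401 in 24L to 104 in 24H. The iridophore enzyme pnp4a had one of 0.162, and the choline phosphodiesterase enpp6 one of 0.309.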

How the results depend on the processing

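The counts of 1631 higher and 1850 lower genes moved by more than 1.5 times with 5 settings. At least 50 reads in the higher library gave 1010 and 1202, a 4-fold threshold 497 and 695, no interval 2845 and 3167, an interval wholly beyond 2-fold 743 and 886, and edgeR's exact test at an assumed coefficient of 0.4 438 and 706. Scaling by library totals (1202 and 2322) and by median-of-ratios (1457 and 2048) changed the split. The folds of named genes were checked under 3 settings, the 2 other scalings and 1 added, and were counted once per gene and setting. Of these folds 775 stayed as they were, called or not, 23 lost a call, 3 gained one and 0 changed direction. The 23 belonged to genes with FCs under 2.23, some of them counted in more than 1 setting. An example is ccnd1, whose FC was 2.01 and 1.81 under library totals. List medians near 0 changed sign with library totals, as for p53-related genes (0.05 and -0.11) and solute carriers (0.10 and -0.06). No paired analysis was possible because each group held 1 library, and for the same reason no library could be left out. Whether any difference exceeds that between pools of 1 dose is not known from these libraries.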

Other observations

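Further groups at 10 hpf were mixed. Of 47 measured nuclear receptor, thyroid and steroid genes, 9 (19.1%) were lower in 10H and 6 (12.8%) higher, against 10.6% and 8.77% of all measured genes. Nr2f2, an orphan receptor of veins and hindbrain, was at 328 in 10C, 573 in 10L and 45.2 in 10H (FC 0.0789, 0.0565 to 0.107), and nr2f5 had an FC of 0.254 (0.241 to 0.267). The thyroid hormone receptor thrb was lower (FC 0.238, 0.141 to 0.382), and the corepressor nr0b2a higher, at 2189, 1768 and 5591 (FC 3.16, 3 to 3.33). Of 28 clock genes 3 (10.7%) were higher and 2 (7.14%) lower, near the 8.77% and 10.6% of all measured genes. The higher included per3, a period gene (FC 5.73, 4.30 to 7.77), and the lower aanat2 of melatonin synthesis (FC 0.399, 0.323 to 0.492).

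Of 40 measured cadherins and claudins, 4 (10.0%) were higher and 5 (12.5%) lower, near the 8.77% and 10.6% of all measured genes. The called claudins, which seal epithelia, lay on both sides. Cldnc (FC 10.7), cldnd (FC 2.55) and cldne (FC 2.09) were higher, while cldna was at 1197 in 10C, 1590 in 10L and 192 in 10H (FC 0.121, 0.103 to 0.141), cldni at 1167, 2349 and 164 (FC 0.0698, 0.059 to 0.0821), and cldn1 had 23, 55 and 4 reads. Cldne was not called under library totals (FC 1.88). The abundant enveloping layer keratin krt4 was at 476425, 360760 and 467537 and was not called.

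Kupffer's vesicle genes, which set left and right, were higher in 5 (19.2%) and lower in 1 (3.85%) of 26 measured members. All measured genes had 8.77% and 10.6%, and the list's median log2 FC was -0.03. The lower one was cha, a Nodal antagonist of that organ (FC 0.416, 0.312 to 0.549). Under library totals 3 were higher and 2 lower, and at the assumed coefficient of 0.4 the numbers were 1 and 0. Of 37 chromatin proteins 2 were higher and 1 was lower, both shares under the 8.77% and 10.6% of all measured genes. Higher were the DNA methyltransferase gene dnmt4 (FC 2.84, 2.7 to 2.99) and h3f3a, a variant histone H3 (FC 2.12, 2.09 to 2.14, and 1.90 under library totals). Hmga2 was the lower one (FC 0.403, 0.309 to 0.52).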
